A study of Caenorhabditis elegans with 6 samples.

Results

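The genes that hold the balance between stem cell division and meiosis in the germline of the nematode Caenorhabditis elegans were examined in an ung-1 mutant and in wild type N2, the reference strain of the species. The 8 genes were glp-1, lag-1, gld-1, gld-2, gld-3, fbf-1, fbf-2 and nos-3. They were represented by every probe set of the array whose platform annotation gave 1 of these symbols and no other, which came to 18 of the 22548 probe sets tested. The array named 17118 genes in this way. A further probe set that names both fbf-1 and fbf-2 was set apart and is given only beside them.

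Total RNA of 3 samples labelled ung-1 mutant and 3 labelled wild type N2 was measured on Affymetrix genome arrays for this species, with 1 array per sample. Uracil-DNA glycosylase, the product of ung-1, removes uracil from DNA. The labels name the replicates as biological and give no allele, stage, age, tissue, culture condition or treatment, and the series text speaks of RNAi mutants where the sample labels speak of a mutant. Whether they came from separate cultures is not stated further, so each p-value measures only the spread between these samples. Probe set intensities have no unit of their own, and their means are given ± SD with n = 3 per group. A fold change is the mean of log2(intensity + 16) in the mutant less that in N2, given with its limma standard error (SE) and, where an interval is printed, the 95% confidence interval. The arrays allow no order of levels between different probe sets.

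In the gonad of this worm, germline stem cells lie at the distal end beside the somatic distal tip cell, and germ cells enter meiosis as they move away from it. The distal tip cell presents a Notch ligand, and the receptor GLP-1 on the germ cells passes the signal to the DNA-binding protein LAG-1. Signalling keeps the cells dividing with the help of the RNA-binding proteins FBF-1 and FBF-2, which repress the mRNAs of proteins that promote meiosis. Entry into meiosis is promoted by GLD-1 with NOS-3, and in parallel by the poly(A) polymerase GLD-2 with GLD-3. The FBF, GLD and NOS-3 proteins act mostly on translation, which arrays of total RNA do not measure.

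Mutant replicate 3 had the lowest summed intensity of the 6 arrays for P granule and yolk markers, but not for sperm markers. The ung-1 probe set read 54.87, 55.33 and 47.67 in the mutant and 235.93, 254.14 and 295.57 in N2, with no overlap of the groups. The array medians lay between 152.8 and 167.8. Summed over 7 P granule genes, which mark germ cells, intensity was 4695 on mutant replicate 3 and 6188 to 9921 on the other 5 arrays. Summed over 5 yolk protein genes, which are made in the adult intestine, it was 28290 on mutant replicate 3 and 62340 to 79280 on the others. Over 9 sperm genes it was 1950 on mutant replicate 3, while the lowest array was N2 replicate 1 at 1812. Taken singly, 5 of the 9 sperm probe sets were lowest on mutant replicate 3 and 3 on N2 replicate 1. Of all probe sets, 27.6% were lowest on mutant replicate 3. RNA integrity was read from GAPDH controls, where the signal at the 3' end divided by that at the 5' end was 5.01 to 8.77 in the mutant and 8.30 to 11.8 in N2 (two-sided exact permutation p = 0.2). On mutant replicate 3 it was 6.08. For actin the ratio was 3.13 on mutant replicate 3 and 2.89 to 5.23 on the other arrays, and for ubiquitin it was 4.41 and 3.95 to 5.32. For catalase mutant replicate 3 was the highest of the 6 arrays, at 32.2, and the lowest array was at 25.9. The exact permutation p between the groups was 0.2 for actin, 0.2 for ubiquitin and 0.6 for catalase (two-sided), and the part of RNA integrity in the results was not tested. In RNA from many cells, a lower share of germ cells and less of a transcript per germ cell cannot be told apart.

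No probe set of the 18 passed a limma adjusted p of 0.05, and neither did any of the 22548 (0 called, 0.0%). The ung-1 probe set, with a log2 fold change of -2.01 (SE 0.15), did not pass either (limma adjusted p = 0.0765). Failing this threshold is therefore not a sign of no change. At an unadjusted limma p under 0.05, 1 of the 18 was lower in the mutant, where 1.24% of all probe sets were, and 0 were higher, where 0.687% of all were. That probe set, 174893_at, belongs to gld-2. Of the other 4 probe sets of gld-2, 2 had smaller negative changes and 2 positive ones, each with an interval that includes 0. Each of the 18 probe sets had a limma adjusted p of 0.9995. The changes ran from -0.73 to 0.49, with 11 of 18 below 0, where 55.5% of all probe sets were below 0. Their median was -0.13, against -0.028 over all probe sets. In 11 of the 18 the change was smaller than its own standard error, where this held for 71.7% of all probe sets.

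**Figure D1:**
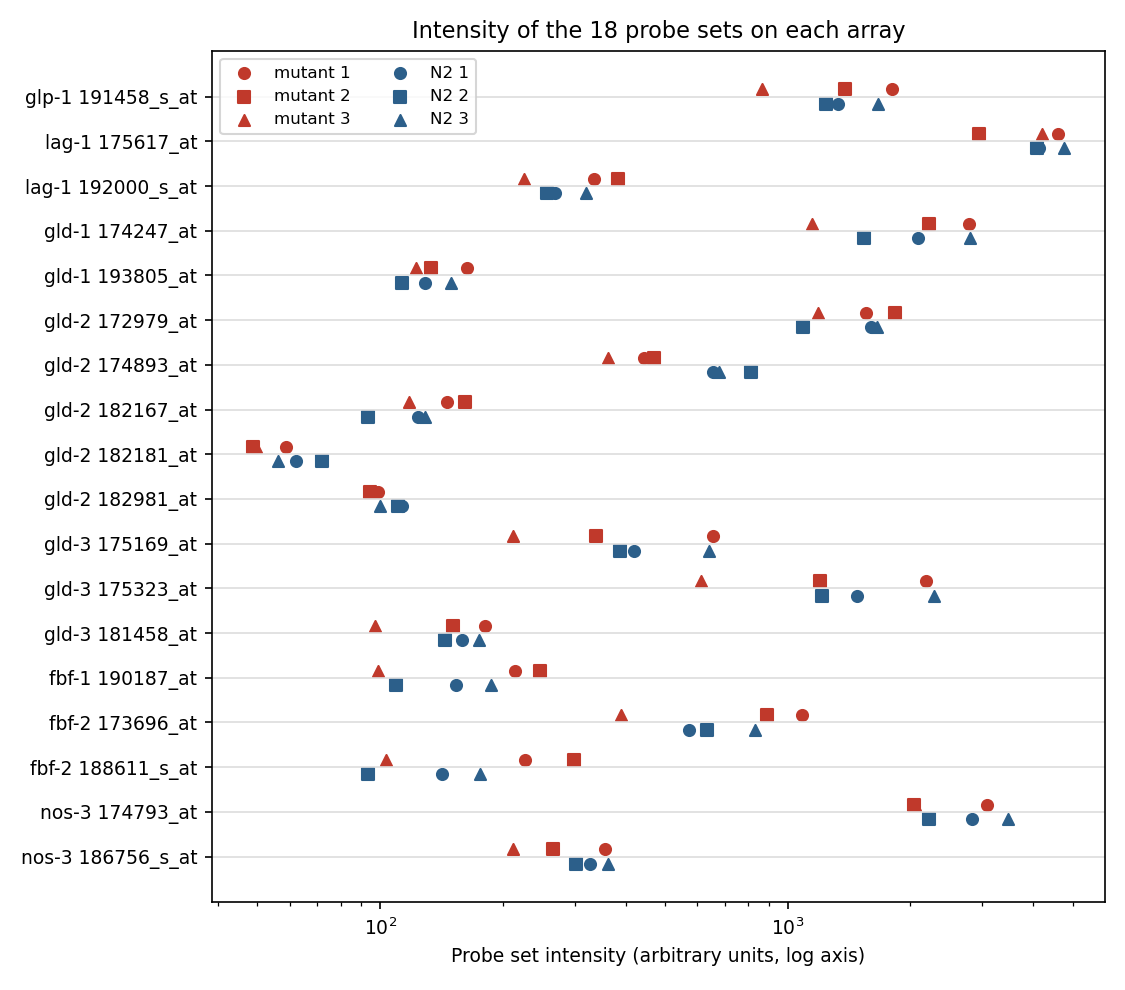
Intensity (arbitrary units, log axis) of the 18 probe sets of the 8 genes, 1 row per probe set, with mutant arrays in red above N2 arrays in blue and 1 symbol per replicate. The groups overlap in all rows but those of gld-2 probe sets 174893_at and 182981_at, and the red triangle of mutant replicate 3 is the lowest of the 6 arrays in 11 rows.

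The Notch receptor gene glp-1, whose loss makes all germline stem cells enter meiosis, had 1 probe set. It read 1798.59, 1383.21 and 864.35 on mutant replicates 1, 2 and 3, and 1328.52, 1241.07 and 1660.62 on those of N2. The mutant thus held both the highest and the lowest of the 6 values, and the N2 arrays lay between them. The means were 1349 ± 468.1 in the mutant and 1410 ± 221.3 in N2, and the log2 fold change was -0.11 (SE 0.28, interval -0.78 to 0.55). Without mutant replicate 3 it was 0.17 (interval -0.34 to 0.68). Without N2 replicate 3 it was 0.0082, and it stayed negative without each of the other arrays in turn.

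The gene lag-1 encodes the CSL family protein that carries the Notch signal to DNA in many tissues of the worm. Its brighter probe set, 175617_at, read 4602.22, 2948.03 and 4211.99 in the mutant and 4140.37, 4087.27 and 4765.96 in N2. Here mutant replicate 2, not replicate 3, was the lowest, and the log2 fold change was -0.16 (SE 0.20). The other, 192000_s_at, read 335.02, 383.41 and 225.69 in the mutant and 268.5, 257.3 and 320.58 in N2, with a log2 fold change of 0.12 (SE 0.22). The 2 probe sets of lag-1 therefore placed mutant replicate 2 differently, as the lowest of all arrays on one and the highest on the other. RefSeq lists 4 transcripts of lag-1, but the sources used here do not say which of them a probe set reads.

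The paralogs fbf-1 and fbf-2 encode PUF family repressors that maintain the stem cells and that bind many of the same mRNAs. Both genes lie on chromosome II with 1 protein-coding gene between them. The fbf-1 probe set read 213.92, 246.44 and 98.55 in the mutant and 153.27, 109.47 and 187.18 in N2. Replicates 1 and 2 of the mutant were above all N2 arrays and replicate 3 was below them all. The fold change was 0.23 (SE 0.35, interval -0.59 to 1.05).

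The fbf-2 probe set 173696_at had the same order of groups, at 1082.6, 888.99 and 390.79 in the mutant and 571.33, 633.29 and 829.64 in N2 (0.11, SE 0.38). The second, 188611_s_at, read 226.6, 298.29 and 103.32 in the mutant and 142.01, 93.4 and 175.46 in N2 (0.49, SE 0.39). On this one the lowest array was N2 replicate 2. The probe set that names both genes gave 319.48, 464.18 and 118.16 in the mutant and 179.88, 109.21 and 267.27 in N2 (0.55, SE 0.51). Binding of one paralog's RNA to the probes of the other was not tested, and probe sets with identifiers ending in _s_at can match several transcripts.

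Without mutant replicate 3, all 3 fbf probe sets had the mutant above N2 with no overlap, by 0.59, 0.54 and 0.89 on the log2 scale for 190187_at, 173696_at and 188611_s_at. The unadjusted limma p was 0.0466, 0.0459 and 0.0170 and the limma adjusted p was 0.984 for each, so none passed. Over all probe sets, 3.69% had an unadjusted p under 0.05 in that fit, and 19.3% had groups that did not overlap. Of the 18 probe sets, 4 had such a p, the fourth being gld-2 174893_at, and 7 had such groups. These values rest on 2 mutant arrays and leave out the lowest mutant array of each of these probe sets. Without mutant replicate 2 the changes of the same 3 were -0.0046, -0.037 and 0.19, and without N2 replicate 2 they were 0.039, 0.069 and 0.26.

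The Nanos family gene nos-3, whose product binds FBF and acts with GLD-1 towards meiosis, had 2 probe sets that ranked the arrays much alike. Probe set 174793_at read 3078.54, 2035.1 and 2046.65 in the mutant and 2839.08, 2226.59 and 3477.58 in N2. Probe set 186756_s_at read 356.36, 264.76 and 211.36 in the mutant and 327.66, 301.62 and 362.27 in N2. In both, N2 replicate 3 was the highest array and mutant replicate 1 lay among the N2 arrays. The log2 fold changes were -0.26 (SE 0.24, interval -0.83 to 0.32) and -0.27 (SE 0.21, interval -0.76 to 0.23). They kept a negative sign without each array in turn, and were -0.16 and -0.096 without mutant replicate 3.

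The gene gld-1 encodes a KH domain protein that binds and represses many maternal mRNAs and drives germ cells into meiosis. Its brighter probe set, 174247_at, read 2777.98, 2223.1 and 1147.39 in the mutant and 2083.62, 1541.13 and 2793.66 in N2. The mutant arrays spanned 2.42-fold from lowest to highest, and the N2 arrays 1.81-fold. The log2 fold change was -0.11 (SE 0.37, interval -0.98 to 0.76). It was 0.26 without mutant replicate 3 and 0.10 without N2 replicate 3, and stayed negative without each of the other arrays in turn. The dimmer one, 193805_at, read between 113.44 and 163.57 on all 6 arrays, with a fold change of 0.085 (SE 0.17).

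The gene gld-3 encodes a KH domain protein of the Bicaudal-C family that joins GLD-2 in an active poly(A) polymerase. Probe set 175323_at read 2177.73, 1200.74 and 611.92 in the mutant and 1476.43, 1212.52 and 2278.22 in N2. Probe set 175169_at read 655.47, 338.14 and 212.23 in the mutant and 419.93, 388.19 and 641.39 in N2. Probe set 181458_at read 181.19, 151.2 and 97.0 in the mutant and 158.49, 144.31 and 175.04 in N2. All 3 had the same lowest array, mutant replicate 3, and in each of them mutant replicate 1 and N2 replicate 3 were the highest 2 arrays.

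The spread of gld-3 between mutant arrays was the widest among the 18 probe sets, with 3.56-fold from lowest to highest on 175323_at and 3.09-fold on 175169_at. The log2 fold changes of 175323_at, 175169_at and 181458_at were -0.44 (SE 0.46), -0.36 (SE 0.40) and -0.17 (SE 0.23). Without mutant replicate 3 they were 0.017, 0.00053 and 0.055, so the negative sign of all 3 rested on that array. The interval for 175323_at, from -1.54 to 0.66 with all arrays, still holds changes of more than 1 unit on this scale.

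**Figure D2:**
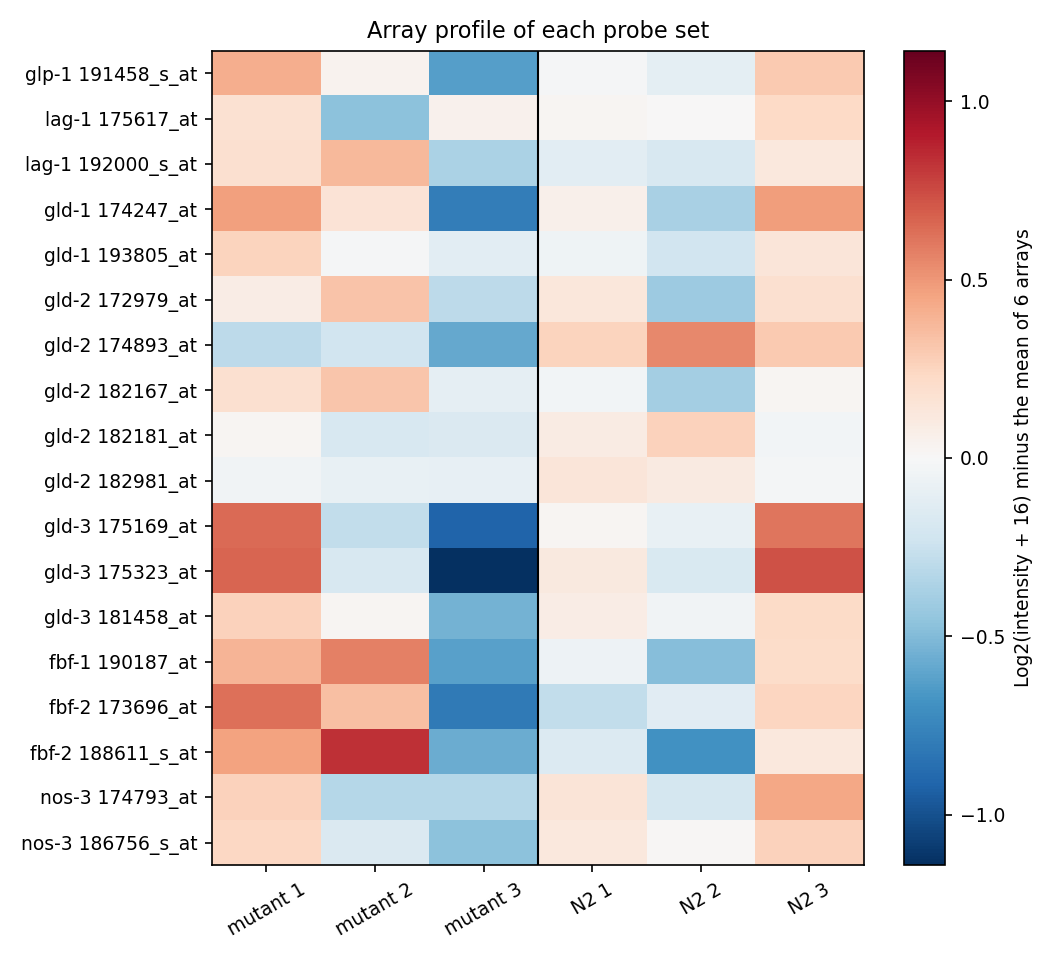
Log2(intensity + 16) of each probe set minus its mean over the 6 arrays, with arrays in columns, mutant left of the black line, and red above and blue below the mean. The column of mutant replicate 3 is blue in all rows but lag-1 175617_at and reaches -1.14 for gld-3 175323_at, while gld-2 174893_at is the row that is blue on all mutant arrays and clearly red on all N2 arrays.

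Mutant replicate 3 was the lowest of the 3 mutant arrays in 15 of the 18 probe sets, where this held for 41.6% of all probe sets. It was the lowest of all 6 arrays in 11 of 18, where this held for 27.6%. At the upper end, N2 replicate 3 was the highest array in 5 of 18, with 6.32% over all probe sets, and N2 replicate 2 in 2 of 18, with 31.2% over all. Relative to each probe set's mean, the median of the 18 was 0.26, 0.0056 and -0.51 on mutant replicates 1, 2 and 3, and 0.040, -0.15 and 0.22 on N2 replicates 1, 2 and 3. The groups overlapped, and 1 array of the mutant lay below all others. Without it, 6 of 18 were lower and 12 higher in the mutant, with a median of 0.11, where 54.5% of all probe sets were lower with a median of -0.024.

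**Figure D3:**
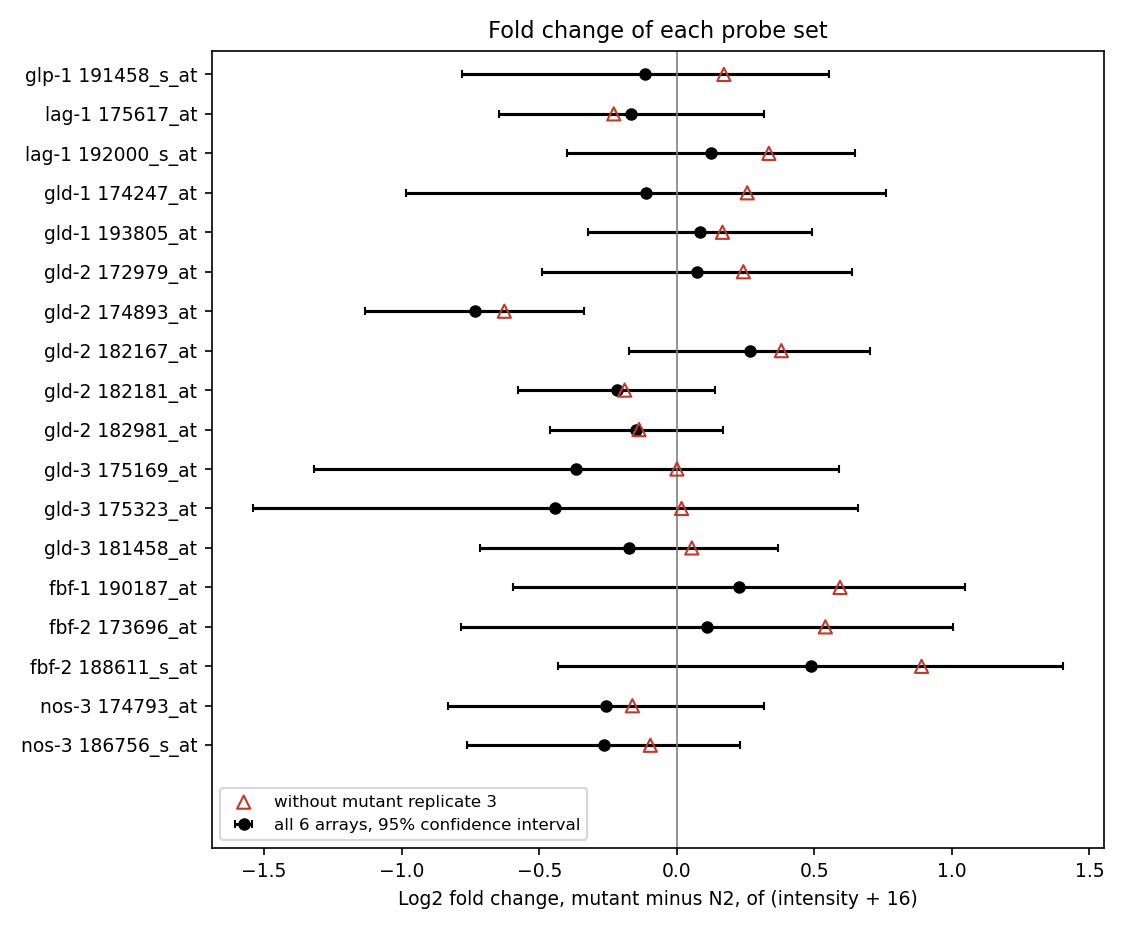
Log2 fold change, mutant minus N2, of each probe set with all 6 arrays (black circles with 95% confidence intervals) and without mutant replicate 3 (open red triangles). Every interval but that of gld-2 174893_at, -1.13 to -0.34, includes 0, and the triangles of the 3 gld-3 rows lie at 0.017 or nearer to 0 for the brighter 2 and at 0.055 for the dimmer.

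The gene gld-2 encodes the catalytic subunit of a cytoplasmic poly(A) polymerase that lengthens the tails of mRNAs and so favours their translation. Probe set 174893_at read 443.65, 469.3 and 361.83 in the mutant and 656.92, 813.19 and 679.18 in N2, or 424.9 ± 56.13 and 716.4 ± 84.53. All mutant arrays lay below all N2 arrays, with N2 1.69 times the mutant on the means. The log2 fold change was -0.73 (SE 0.17, interval -1.13 to -0.34). The unadjusted limma p was 0.00338, the limma adjusted p over all probe sets 0.9995, and the two-sided exact permutation p 0.1, the smallest that 3 against 3 arrays can give. Without mutant replicate 3 the change was -0.63.

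The brightest probe set of gld-2, 172979_at, read 1552.65, 1828.58 and 1183.06 in the mutant and 1596.76, 1088.27 and 1655.38 in N2. Its groups overlapped, with a log2 fold change of 0.074 (SE 0.24, interval -0.49 to 0.64). Probe set 182167_at read 146.05, 161.78 and 117.55 in the mutant and 123.82, 93.46 and 128.99 in N2 (0.26, SE 0.18). On both of these N2 replicate 2 was the lowest array, whereas on 174893_at it was the highest.

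The remaining 2 probe sets of gld-2 were dim and had negative changes. Probe set 182181_at read 58.68, 48.65 and 49.51 in the mutant and 62.32, 72.15 and 56.05 in N2 (-0.22, SE 0.15). Probe set 182981_at read 98.59, 94.62 and 94.17 in the mutant and 113.33, 110.53 and 99.99 in N2 (-0.15, SE 0.13). Its groups did not overlap, though the gap between the nearest arrays was small. Groups that do not overlap thus occurred in 2 of the 18 probe sets, both of gld-2, where 6.69% of all probe sets had them.

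The 5 probe sets of gld-2 fell into different array profiles. Likeness was measured as the root mean square difference, over the 6 arrays, of log2 values centred on each probe set's mean, and a lower value means more alike. It was 0.13 between 172979_at and 182167_at, and 0.086 between 182181_at and 182981_at. Between 174893_at and the 4 others it was 0.50 for 172979_at, 0.55 for 182167_at, 0.29 for 182181_at and 0.33 for 182981_at. Probe sets of gld-2 had opposite signs, as did those of lag-1 and of gld-1, while those of gld-3, fbf-2 and nos-3 did not. Wide differences within a gene were not particular to gld-2. Likeness was 0.39 between the probe sets of lag-1, 0.34 for gld-1, 0.33 for fbf-2 and 0.14 for nos-3. For gld-3 it ran from 0.12 to 0.38.

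The change of 174893_at was next set against each other gld-2 probe set within each array, a comparison chosen after the values were seen. Relative to 172979_at, the log2 ratio was -1.77, -1.93 and -1.67 in the mutant and -1.26, -0.41 and -1.27 in N2. The difference in change was -0.81 against 172979_at, -0.999 against 182167_at, -0.52 against 182181_at and -0.59 against 182981_at. In each of the 4 comparisons the 3 mutant arrays lay below the 3 N2 arrays. The 4 share 174893_at, which was picked because its unadjusted limma p was the smallest among the gld-2 probe sets. They are therefore a description and not 4 separate results. RefSeq lists 5 transcripts of gld-2, but the sources used here do not say which of them, or which part, a probe set reads.

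**Figure D4:**
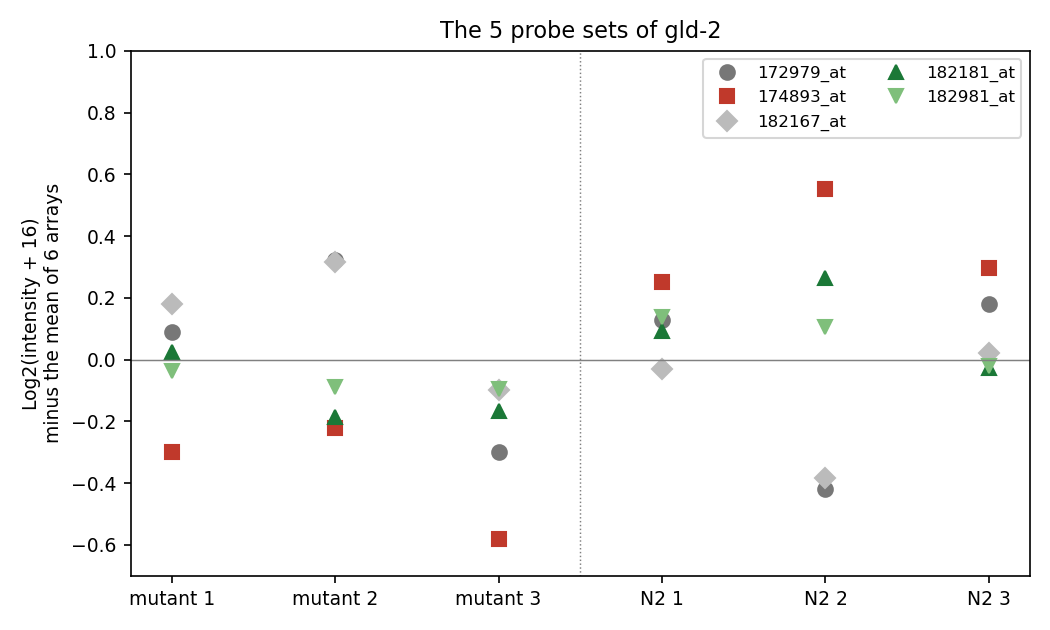
Log2(intensity + 16) minus the mean of 6 arrays for the 5 probe sets of gld-2, by array, with mutant arrays left and N2 arrays right of the dotted line. Red squares, 174893_at, lie at -0.22 or lower on the mutant arrays and at 0.25 or higher on the N2 arrays, while the dark grey circles of 172979_at run from 0.32 on mutant replicate 2 to -0.42 on N2 replicate 2.

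Other genes of the pathway were taken from 5 lists, and 0 of their probe sets passed the limma adjusted threshold. Of Notch signalling genes other than glp-1 and lag-1, 15 of 15 had a probe set. Of 20 probe sets 11 were lower in the mutant, where 55.5% of all probe sets were, and the median log2 fold change was -0.055. At an unadjusted limma p under 0.05, 0 of the 20 were called, where 1.24% of all were lower and 0.687% higher. Groups did not overlap in 2 of the 20, where 6.69% of all had such groups. The ligand gene lag-2, which the distal tip cell expresses, read 94.19, 157.9 and 78.58 in the mutant and 210.7, 278.48 and 105.52 in N2. The groups overlapped, with N2 replicate 3 below mutant replicate 2 (log2 fold change -0.72, SE 0.37). A second ligand gene, apx-1, had -0.27 (SE 0.18), the presenilin gene sel-12 had 0.28 (SE 0.17), and sel-10, an F-box gene that limits Notch activity, had -0.21 (SE 0.16).

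Among genes of stem cell maintenance, 12 of 13 had a probe set of their own, all but ntl-1. Of their 14 probe sets 7 were lower and 7 higher in the mutant, where 55.5% of all probe sets were lower. The median log2 fold change was 0.040. At an unadjusted limma p under 0.05, 0 were called, where 1.24% of all were lower and 0.687% higher. Groups that do not overlap occurred in 0 of the 14, where 6.69% of all had them. The genes lst-1 and sygl-1, which GLP-1 signalling activates in stem cells, had 0.14 (SE 0.20) and 0.092 (SE 0.16). The sygl-1 probe set was dim, at 65.66 to 92.54, where the array medians lay between 152.8 and 167.8. For lst-1 the readings were 579.19, 515.68 and 375.35 in the mutant and 396.48, 426.52 and 490.47 in N2. As for fbf-1, mutant replicate 3 lay below all N2 arrays and the other mutant arrays above them. The sperm fate gene fog-1 had -0.20 (SE 0.19), the deadenylase gene ccf-1 0.20 (SE 0.20) and the RNA-binding protein gene mex-3 -0.23 (SE 0.31).

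Among partners and regulators of meiotic entry, 12 of 13 had a probe set of their own, all but gls-1. Of 16 probe sets 9 were lower in the mutant, where 55.5% of all probe sets were, and the median log2 fold change was -0.049. At an unadjusted limma p under 0.05, 0 were called, where 1.24% of all were lower and 0.687% higher. Groups did not overlap in 1 of the 16, that of teg-1, where 6.69% of all had such groups. The RNA-binding partner gene of GLD-2, rnp-8, had -0.18 (SE 0.25), and gld-4, which encodes the second cytoplasmic poly(A) polymerase of the germline, had 0.065 (SE 0.20). The gene fog-2, which encodes a partner of GLD-1, read 1035.15, 798.23 and 377.91 in the mutant and 670.5, 1066.7 and 785.99 in N2 (-0.27, SE 0.38). The genes teg-1 and teg-4, whose mutations enhance germline tumours, had 0.19 (SE 0.15) and 0.28 (SE 0.22).

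For mRNAs known to be bound by GLD-1, 13 of 13 genes had a probe set and 14 of 21 probe sets were lower in the mutant, where 55.5% of all probe sets were, with a median of -0.054. Among them 1 was lower with an unadjusted limma p under 0.05, where 1.24% of all were, the oocyte maturation gene oma-2 on probe set 173110_at (log2 fold change -0.41, SE 0.14, limma adjusted p = 0.9995). The other oma-2 probe set, 189988_s_at, had -0.054 (SE 0.35). The embryonic fate genes spn-4 and pal-1 had -0.42 (SE 0.24) and -0.28 (SE 0.24), and the sex determination gene tra-2 had 0.20 (SE 0.19). The genes rme-2, oma-1, oma-2, puf-5 and egg-1 of this list are also oocyte markers below, so those lists are not separate. Mutant replicate 3 was the lowest array in 13 of the 21 probe sets, where it was so in 27.6% of all. For 5 genes of meiotic axes and synapsis whose mRNAs FBF represses, it was the lowest in 6 of 6 probe sets, against the same 27.6%. There the median was -0.13. The gene him-3 had -0.26 (SE 0.30), syp-2 -0.16 (SE 0.30), syp-3 -0.14 (SE 0.35) and htp-2 -0.11 (SE 0.32). Of these 6 probe sets 5 were lower in the mutant, where 55.5% of all were. An unadjusted limma p under 0.05 was reached by 0 of the 6, where 1.24% of all were lower and 0.687% higher. Groups did not overlap in 0 of the 6 and in 1 of the 21, oma-2 173110_at, where 6.69% of all had such groups.

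**Figure D5:**
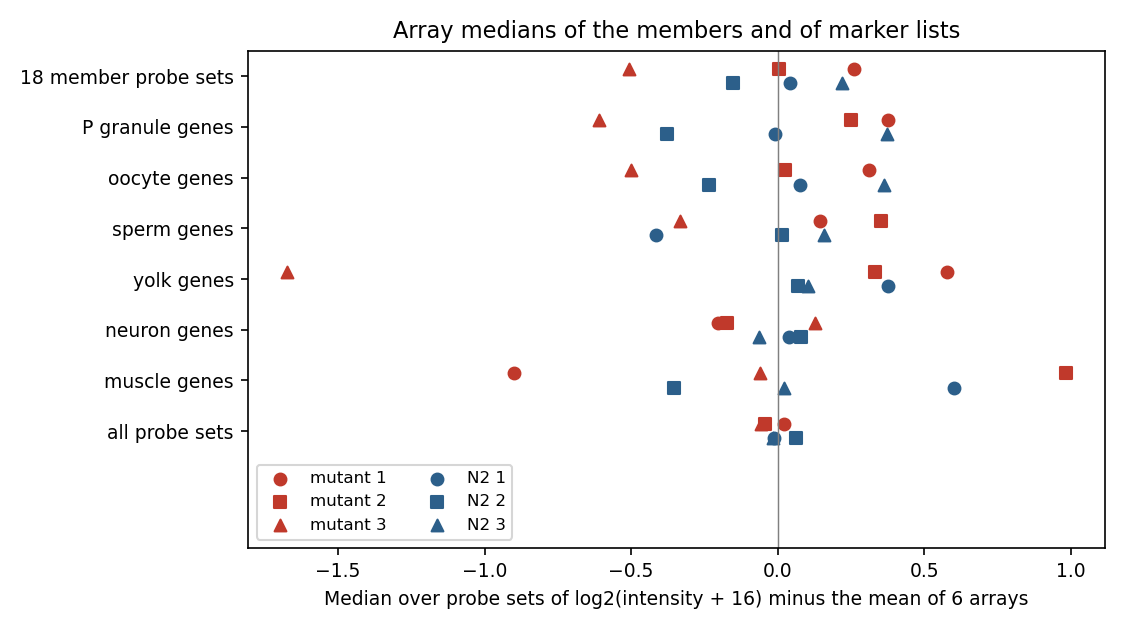
Median over the probe sets of a list of log2(intensity + 16) minus each probe set's mean over 6 arrays, for the 18 probe sets, for marker lists and for all probe sets, with mutant arrays in red, N2 arrays in blue and 1 symbol per replicate. Mutant replicate 3 is the lowest array for the 18 probe sets (-0.51), P granule genes (-0.61), oocyte genes (-0.50) and yolk genes (-1.67), and lies above the other mutant arrays for neuron genes (0.13).

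P granule and oocyte markers moved between arrays together with the 18 probe sets. The median of 10 probe sets of 7 P granule genes was 0.37, 0.25 and -0.61 on mutant replicates 1, 2 and 3, and -0.0098, -0.38 and 0.37 on those of N2. For 10 probe sets of 7 oocyte genes it was 0.31, 0.024 and -0.50 in the mutant and 0.078, -0.23 and 0.36 in N2. Both lists put the arrays in nearly the order of the 18 probe sets, with mutant replicate 3 lowest and N2 replicate 2 next. For 9 probe sets of 9 sperm genes the lowest median was on N2 replicate 1, at -0.41, with mutant replicate 3 at -0.33. Mutant replicate 3 was nonetheless the lowest array in 5 of these 9 probe sets.

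Markers of somatic tissues differed among themselves. On mutant replicate 3 the median was -0.61 for intestine genes, the lowest median of the arrays, but the intestine list was split. That array was the lowest in 3 of its 5 probe sets and the highest in 2. For elt-2 it read 1475.9, against 440.93 to 871.6 on the other arrays. The median on mutant replicate 3 was -0.13 for epidermis and cuticle genes, 0.13 for neuron genes and -0.062 for muscle genes. It was 0.15 for gonad sheath and distal tip genes and 0.10 for embryo genes. The gonad sheath and distal tip list was split too, with mutant replicate 3 lowest in 1 of its 4 probe sets and highest in 1. For lag-2 that array read 78.58, against 94.19 to 278.48 on the others. For lim-7 it read 161.11, against 78.64 to 97.36. The muscle markers ranged from -0.90 on mutant replicate 1 to 0.98 on mutant replicate 2. Summed intensity of the 7 P granule genes ran from 4695 to 9711 in the mutant and from 6188 to 9921 in N2, and that of the 7 oocyte genes from 28190 to 44070 and from 35330 to 48290. For sperm genes the ranges were 1950 to 4241 and 1812 to 3071, and for yolk genes 28290 to 79280 and 62340 to 73750. No marker of these 4 lists was at 0, but without detection calls this does not show that each was detected. The sperm gene spe-9, for example, read 57.64 to 82.18. The part of germline content and stage in the differences between arrays was not tested.

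By the same measure of likeness, the probe sets of other single genes closest to each member's brightest probe set were found among 15854 probe sets with a mean above the 25th percentile. For glp-1 these were C49F5.6 at 0.031, the gap junction gene inx-21 at 0.039 and the replicative helicase gene mcm-3 at 0.054, where the median over all was 0.41. For gld-1 they were the meiotic axis gene htp-3 at 0.058, the cytoplasmic polyadenylation element binding gene cpb-3 at 0.062 and the nucleoporin gene npp-22 at 0.076. For gld-3 the nearest, cpg-4, was at 0.13, and for fbf-1 the helicase gene mcm-6 was second at 0.065. For lag-1 the nearest were Y73E7A.8 at 0.048 and the transcription factor gene nfi-1 at 0.052. For fbf-2 and nos-3 they were piga-1 at 0.062 and F32D1.7 at 0.052. Searched over so many probe sets on 6 arrays, these are a description of the arrays only.

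For gld-2 the nearest to its brightest probe set were gmps-1 at 0.050, smg-1 at 0.053 and lex-1 at 0.064. The probe set that was lower in the mutant, 174893_at, had other neighbours, listed after its values were seen. They were nep-12 at 0.085, anmt-3 at 0.11 and srd-10 at 0.13. Among the members themselves, the closest pairs of different genes were gld-3 181458_at with nos-3 186756_s_at at 0.089 and with glp-1 191458_s_at at 0.096.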

How the data were processed

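The deposited table holds linear intensity values, 1 for each probe set on each array. How the authors summarised probes and whether they scaled the arrays is not stated in the labels. No detection calls were used, so the distance of dim probe sets from background is unknown. Of 1364 large whole numbers in the deposited intensities, 1361 match spreadsheet dates and were read back as the small values such dates stand for (631 as day.month and 730 as month.year), with 0 of them in the probe sets of the 8 genes. Tests did not include the 77 control probe sets.

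Symbols came from the platform annotation, and 0 symbols changed when gene identifiers were looked up in RefSeq (assembly WBcel235). Of 22548 probe sets, 20766 carried 1 symbol, 887 several and 895 none. The test was limma's moderated test (limma 3.58.1, R 4.3.3, two-sided) of log2(intensity + 16), adjusted by Benjamini-Hochberg over all 22548 probe sets at a threshold of 0.05, with no further normalization or filter. The offset understates the change of dim probe sets. Exact permutation tests used all 20 regroupings of the arrays. The code was tested on simulated data. The number of arrays limits the precision.

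The members and lists were chosen with earlier results of these data known. The rule for named genes took every probe set of the members, up to 4 genes per pathway list by unadjusted p, and 3 nearest profiles per member. In the text, sygl-1, gld-4, the further gld-2 comparisons and the examples picked from the nearest profiles lie outside it or were selected after their values were seen. Alternatives were the values as deposited, date cells missing, offsets of 1 and 50, quantile normalization, median centring, an intensity trend, array weights, a filter on dim probe sets, a replicate block and leaving out each array. Further software was Python 3.11.15, pandas 2.3.3 and matplotlib 3.10.9.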

Additional observations from a re-analysis of the deposited data

How the results depend on the processing

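No probe set of the 8 genes passed a limma adjusted p of 0.05 under any of the 16 alternatives. Over all probe sets, 0 passed in the reported fit, 6 with values as deposited, 1 with an intensity trend, 1 with array weights and 0 under each of the others. The array weights were lowest for N2 replicate 2 (0.459) and mutant replicate 3 (0.473) and highest for N2 replicate 1 (3.52). The number with an unadjusted p under 0.05 was 435, and it was 1554 with array weights, 193 without the dimmest probe sets and 232 to 894 with 1 array left out. It was 714 and 831 when mutant replicate 1 or 3 was dropped and 894 for N2 replicate 3, and it was 233, 234 and 232 for mutant replicate 2, N2 replicate 1 and N2 replicate 2. The median change of the 18 probe sets ranged from -0.29 to 0.11 with 1 array left out. The number lower in the mutant was 11 of 18, and 6 (without mutant replicate 3) to 14 with 1 array left out, and 5 of 8 with 1 probe set per gene, an alternative added after seeing the data, which has fewer probe sets.

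The lower gld-2 probe set 174893_at ranged from -0.81 to -0.59 over all settings, with an unadjusted p from 0.00217 to 0.0209 and an adjusted p of at least 0.669. Of the 18 probe sets, 11 changed sign, all of them only with 1 array left out. The lowest and highest values with 1 array left out were -0.35 and 0.17 for glp-1. For lag-1 they were -0.29 and 0.027 on 175617_at, and -0.028 and 0.33 on 192000_s_at. For gld-1 they were -0.38 and 0.26 on 174247_at, and -0.023 and 0.17 on 193805_at. For gld-2 172979_at they were -0.12 and 0.24. For gld-3 they were -0.78 and 0.00053 on 175169_at, -0.89 and 0.017 on 175323_at, and -0.35 and 0.055 on 181458_at. For fbf-1 they were -0.0046 and 0.59, and for fbf-2 they were -0.18 and 0.54 on 173696_at, and 0.19 and 0.89 on 188611_s_at, which kept its sign. The array that turned each sign differs, and the cause was not tested.

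The labels do not say whether the replicate numbers pair the samples, and the reported fit did not pair them. Deviations of same-numbered arrays from their group means correlated at -0.19, 0.090 and 0.10. With 3 arrays per group these correlations cannot show whether the samples were paired. With the replicate block, 323 probe sets had an unadjusted p under 0.05, 0 passed the adjusted threshold, and gld-2 174893_at had an unadjusted p of 0.00844. The correlation was highest with the own number for mutant replicate 3, not for mutant replicates 1 and 2.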
